A study of Homo sapiens with 6 samples.

Results

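CXCR4 and KIT encode 2 cell-surface receptors of neural crest cells and their derivatives, studied here in SH-SY5Y cells, a line grown from a human neuroblastoma and with traits of sympathetic neurons. The genes were taken by symbol from the platform's probe table. Each had 1 probe set, so the members are 2 of 14884 named genes and 2 of 53617 probe sets. They were chosen by their securinine and mock values in these arrays, where both had some of the largest differences. Their values in that contrast are therefore given as a description, without a test. Cells received securinine at 30 µM, 16F16 at 4 µM or the solvent methanol (mock) for 24 h, with 2 Affymetrix Human Gene 2.0 ST arrays per group. The submitters name both compounds as inhibitors of protein disulfide isomerase, which helps secreted and membrane proteins to fold by making and reshuffling their disulfide bonds. All groups are the same line, with no genetic change named in the labels. Sample titles number 2 biological replicates per group, but how their cultures were kept apart is not said, so p-values measure the spread between these arrays, which may be technical.

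CXCR4 is a G protein-coupled receptor for the chemokine CXCL12, and it guides migrating cells in development, including neural crest cells, germ cells and blood precursors. KIT is a receptor tyrosine kinase of the type III family, whose ligand is stem cell factor, the product of KITLG. KIT is needed by melanocytes, which come from the neural crest, and by germ cells, mast cells and the pacemaker cells of the gut. Ligand-bound CXCR4 signals through inhibitory G proteins and is then phosphorylated, ubiquitinated and sorted to lysosomes, while KIT recruits adaptors of the RAS and phosphoinositide 3-kinase pathways.

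The 250 bases before the annotated start of each gene are shown because the start region is where transcription of the genes begins and both genes were low in the same arrays. Sequences and coordinates are from RefSeq on GRCh38.p14, and of the 3 start sites listed for CXCR4 the outermost is shown. CXCR4 lies on the minus strand of chromosome 2 (chr2:136118150-136118399) and KIT on the plus strand of chromosome 4 (chr4:54657707-54657956). Capitals mark every match on either strand to the GC box, GGGCGG, or to the TATA box, spelled TATAAA.
CXCR4: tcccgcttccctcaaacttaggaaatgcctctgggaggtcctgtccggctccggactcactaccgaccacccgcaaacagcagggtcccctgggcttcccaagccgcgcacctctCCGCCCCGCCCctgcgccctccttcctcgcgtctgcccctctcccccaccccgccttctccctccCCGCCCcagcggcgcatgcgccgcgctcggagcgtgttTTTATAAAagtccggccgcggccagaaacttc
KIT: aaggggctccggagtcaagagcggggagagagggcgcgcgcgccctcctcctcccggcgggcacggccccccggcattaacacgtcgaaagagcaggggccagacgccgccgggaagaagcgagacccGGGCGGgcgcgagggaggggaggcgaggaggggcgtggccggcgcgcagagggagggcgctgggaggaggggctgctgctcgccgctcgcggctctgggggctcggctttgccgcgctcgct
The CXCR4 window held 3 GC-box matches, 2 of them overlapping, and the TATA box on both strands in overlapping letters at -32 and -30 from the start. The other 2 CXCR4 windows held 0 and 1 GC-box matches and 0 TATA boxes. The KIT window held 1 GC-box match at -122 and 0 TATA boxes. Its GC content was 76.4%, against 68% for CXCR4 and a median of 58% over 35116 such windows. Of those windows, 42.6% held the GC box and 10.7% the TATA box. The E-box CACGTG, which 6.34% of all windows held, had 0 matches in the windows shown. The GATA form AGATAA (9.17% of all windows) and the AP-1 site TGACTCA (4.2%) also had 0. ACGTG, a form of the core of a hypoxia response element that lies within the E-box letters, was also searched. It had 1 match in the KIT window and 0 in the CXCR4 window, with a share of 18.5% over all windows. The form GCGTG was not searched, and both windows shown hold it. Motifs were chosen with the sequences in view, and a match is a run of letters, not a shown binding site.

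The arrays were alike in level, with medians of 4.16 to 4.23 on the log2 scale. RMA, the processing the submitters name, brings arrays to a shared distribution, so these medians say little about the samples. Pearson correlations across probe sets were 0.986 to 0.990 within groups and 0.979 to 0.986 between groups. Among markers of noradrenergic neuroblastoma cells, DBH, HAND2, GATA3, ISL1 and PHOX2A lay at percentile 95.3 or higher of the probe sets on every array. All 14 measured genes of the noradrenergic list lay above the array median on all arrays. Of 18 measured neural crest genes, 13 lay above the array median on all arrays, as did 117 of the 172 measured genes of all lists used below. That median is over all probe sets, of which 30.0% were named, so the count is not particular to crest genes. The crest factor SOX10 lay at percentiles 65.4 to 69.1, while FOXD3 (25.4 to 41.2) and PAX3 (28.5 to 36.8) were among the dimmer probe sets. Arrays measure a whole culture, so fewer cells with a transcript and less transcript per cell cannot be told apart.

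The log2 values of CXCR4 were 6.94 and 6.51 in securinine arrays, 9.47 and 9.02 in 16F16 arrays and 10.20 and 10.25 in mock arrays. The groups did not overlap, and the order was securinine lowest, 16F16 between, mock highest. The mean was 6.73 ± 0.30 with securinine, 9.24 ± 0.31 with 16F16 and 10.23 ± 0.034 in mock (SD, n = 2 each). Securinine minus mock was -3.50 ± 0.20 (SE), a level of 8.82% of mock on the linear scale. That was the lowest difference of all 14884 genes (rank 1 from the bottom). CXCR4 stayed at percentiles 81.8 and 78.2 of its arrays with securinine, against 97.7 on both mock arrays.

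KIT followed the same order of groups. Its log2 values were 4.21 and 3.65 in securinine arrays, 5.92 and 5.23 in 16F16 arrays and 6.71 and 6.84 in mock arrays. Again no group overlapped another. The mean was 3.93 ± 0.40 with securinine, 5.58 ± 0.49 with 16F16 and 6.78 ± 0.087 in mock (SD, n = 2 each). Securinine minus mock was -2.84 ± 0.28 (SE), or a signal of 13.9% of mock, and ranked 3 from the bottom. KIT lay at percentiles 49.8 and 40.0 with securinine, so about at the middle of all probe sets or below it, against 80.1 and 81.1 in mock. No detection calls were used, so how much of the remaining KIT signal is background was not tested, and the differences of KIT and CXCR4 give no order between the genes.

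In both genes the spread was wider in treated than in mock arrays. The lower of the 2 securinine arrays was replicate 2 for CXCR4 and for KIT, and the lower 16F16 array was also replicate 2 for both. The rank order of the 6 arrays was therefore the same for the 2 genes. A non-overlapping order of securinine below 16F16 below mock was seen in 7.99% of genes. Both securinine arrays lay below both mock arrays in 33.9% of genes, and both 16F16 arrays did in 27.7%. Since the securinine contrast chose these genes, nothing is read from their share against those values.

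**Figure D1:**
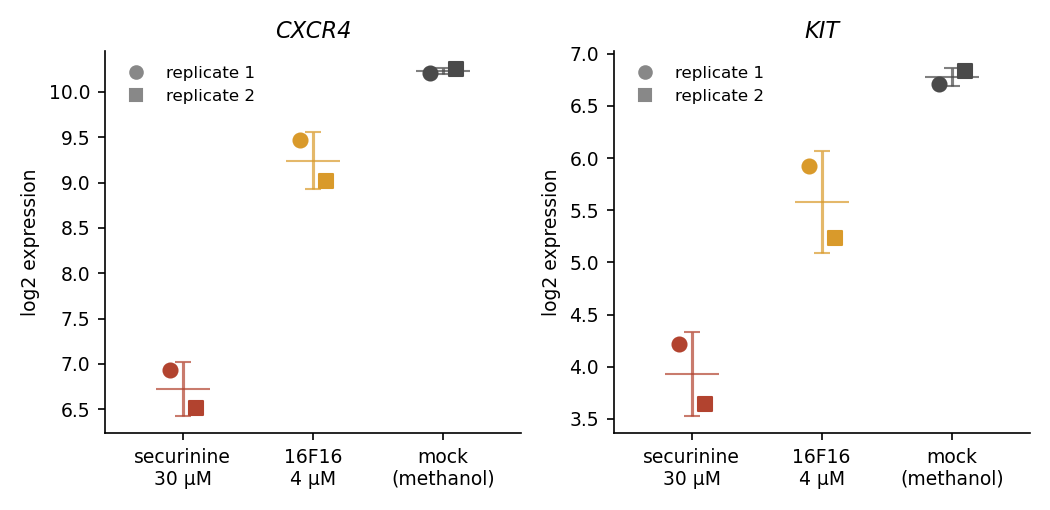
Log2 expression (vertical axes, separate ranges not starting at 0) of CXCR4 and KIT on each of the 6 arrays by treatment. Circles and squares are replicates 1 and 2, the horizontal mark is the group mean and the bar is the SD of 2 arrays; CXCR4 spans 6.51 to 10.25 and KIT 3.65 to 6.84, with securinine lowest and mock highest in both.

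The contrast of 16F16 with mock asks whether the other inhibitor, at its own dose, moved the same receptors. It did not choose the genes, but it shares the mock arrays with the contrast that did. A choice that favours high mock values would also push the 16F16 differences down. The p-values, intervals and ranks below do not allow for that. CXCR4 was at -0.99 ± 0.20 (SE), 50.5% of mock, and KIT at -1.20 ± 0.28, 43.6% of mock. Neither passed in limma (adjusted p = 0.072 for CXCR4 and 0.093 for KIT, Benjamini-Hochberg over 14884 genes), so 0 of 2 genes were called, where 1.50% of all genes were called and 0.779% were called lower. The unadjusted p in limma was 0.0028 for CXCR4 and 0.0056 for KIT. The 95% interval of the difference ran from -1.47 to -0.50 for CXCR4 and from -1.89 to -0.51 for KIT, so a fall by 1.41-fold to 2.78-fold in CXCR4 and by 1.43-fold to 3.70-fold in KIT lies inside it. The values ranked 45 and 19 from the bottom. When the prior spread was allowed to follow signal level, both genes passed (adjusted p = 0.0013 for CXCR4 and 0.0060 for KIT), and likewise when genes of low signal were left out (0.032 and 0.047). Without 16F16 replicate 2 the difference was -0.76 for CXCR4 and -0.85 for KIT, and without 16F16 replicate 1 it was -1.21 and -1.54. With 16F16 the levels lay above securinine by 2.52 ± 0.20 for CXCR4 and by 1.65 ± 0.28 for KIT (SE, no test). The doses differ, so these are values of the treatments as given.

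**Figure D2:**
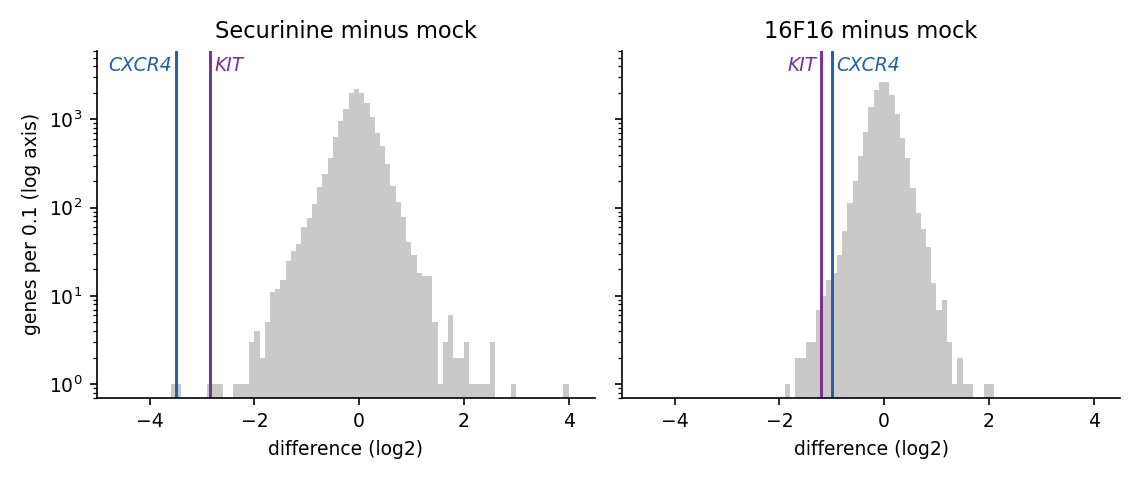
Number of genes per bin of 0.1 (vertical, log axis) by difference from mock in log2 units (horizontal) for securinine (left) and 16F16 (right). Vertical lines mark CXCR4 (-3.50 and -0.99) and KIT (-2.84 and -1.20); with securinine both stand in the sparse left tail, and with 16F16 they lie inside its lower end.

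Genes around the 2 receptors were read from 11 lists holding 247 genes, of which 172 were measured. A gene is called at an adjusted p under 0.05 in the limma fit over all genes. With securinine 44 of the 172 were called, 19 higher and 25 lower (25.6%), where 19.0% of all genes were called, 8.40% higher and 10.6% lower. That balance of all genes, 1251 higher and 1572 lower, was 1426 and 1073 over all probe sets, 1098 and 1818 after quantile normalization and 1016 and 1670 after centring. With 16F16 9 were called, 2 higher and 7 lower (5.23%), against 1.50% of all genes, 0.719% higher and 0.779% lower. Between 16F16 and securinine 23 differed, 16 higher with 16F16 and 7 lower (13.4%), against 9.51% of all genes, 5.55% higher and 3.96% lower. That split was 19 and 4 after quantile normalization and 18 and 3 after centring. Single calls depend on the arrays: the securinine count was 12 when either mock array was left out, 14 when the first securinine array was and 17 when the second was. CHGA, DDC, EPAS1, ETV1, GATA2, GFRA3, MYC, RET, SPRY4 and TFAP2B (10 of the 44) kept their call whichever array was left out. The 16F16 count was 0 without any 1 of the 6 arrays in limma, with 28 to 38 list genes at an unadjusted p under 0.05. The count between 16F16 and securinine was 0 to 5 in the same fits.

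No ligand or direct partner of CXCR4 passed in limma in either comparison with mock (0 of 7 measured, with 2 at an unadjusted p under 0.05 for securinine and 0 for 16F16), where 19.0% and 1.50% of all genes were called. CXCL12, the ligand, had 4.96 and 4.90 in securinine arrays, 4.72 and 4.73 in 16F16 arrays and 4.57 and 4.79 in mock arrays. The securinine arrays lay above both mock arrays, at 0.25 ± 0.098 (SE, adjusted p = 0.14 in limma), and the 16F16 arrays lay between the mock arrays. The share of all genes with securinine arrays above both mock arrays was not counted. ACKR3, the other CXCL12 receptor, which scavenges the chemokine, had 4.05 and 4.04 with securinine, 3.71 and 4.34 with 16F16 and 4.02 and 4.24 in mock, and its groups overlapped. MIF, a cytokine that also binds CXCR4, was bright and at -0.16 ± 0.087 with securinine and -0.19 ± 0.087 with 16F16, neither passing. The nuclear protein HMGB1, which forms a complex with CXCL12, was at 0.41 ± 0.16 with securinine (adjusted p = 0.13). The median difference of these 7 genes was -0.087 with securinine and 0.046 with 16F16, against -0.035 and -0.012 over all genes.

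Of 19 other chemokine receptors measured, 0 passed in limma with securinine (1 at an unadjusted p under 0.05) and 0 with 16F16 (3 at that level), where 19.0% and 1.50% of all genes were called. Their differences from mock ran from -0.31 to 0.27 with securinine and from -0.50 to 0.32 with 16F16. Their log2 values were low in every group, with a median of 3.59 with securinine, 3.61 with 16F16 and 3.48 in mock, and 1 lay above the median of all probe sets on every array. CXCR5, a B-cell homing receptor, had the lowest adjusted p of the family with securinine (0.27 ± 0.086, adjusted p = 0.086), and CCR10 with 16F16 (-0.41 ± 0.10, adjusted p = 0.10).

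On the KIT side, the ligand KITLG was higher in both treatments without passing the test. Its log2 values were 7.10 and 7.29 in securinine arrays, 7.39 and 7.67 in 16F16 arrays and 6.83 and 6.81 in mock arrays. Both treated groups lay above both mock arrays. Such separation is common with 2 arrays per group: both securinine arrays lay below both mock arrays in 33.9% of genes, and both 16F16 arrays in 27.7%. The share of genes lying above was not counted. The difference was 0.38 ± 0.13 with securinine (adjusted p = 0.094) and 0.71 ± 0.13 with 16F16 (adjusted p = 0.061). Among 10 measured ligands and receptors of the type III family, 1 was called with securinine (10%, against 19.0% of all genes). FLT3LG, the ligand of FLT3, fell by 0.71 ± 0.13 with securinine (adjusted p = 0.020). FLT3LG had 5.39 and 5.61 with securinine, 6.21 and 6.43 with 16F16 and 6.10 and 6.31 in mock, so the securinine arrays stood apart. With 16F16 it was at 0.11 ± 0.13, and the treatments differed by 0.82 (adjusted p = 0.026). With 16F16 0 of the 10 passed in limma, where 1.50% of all genes did (3 at an unadjusted p under 0.05). The receptor FLT3, a close relative of KIT, was at -0.091 ± 0.16 with securinine and 0.53 ± 0.16 with 16F16. PDGFRA and PDGFRB are not analysed here.

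**Figure D3:**
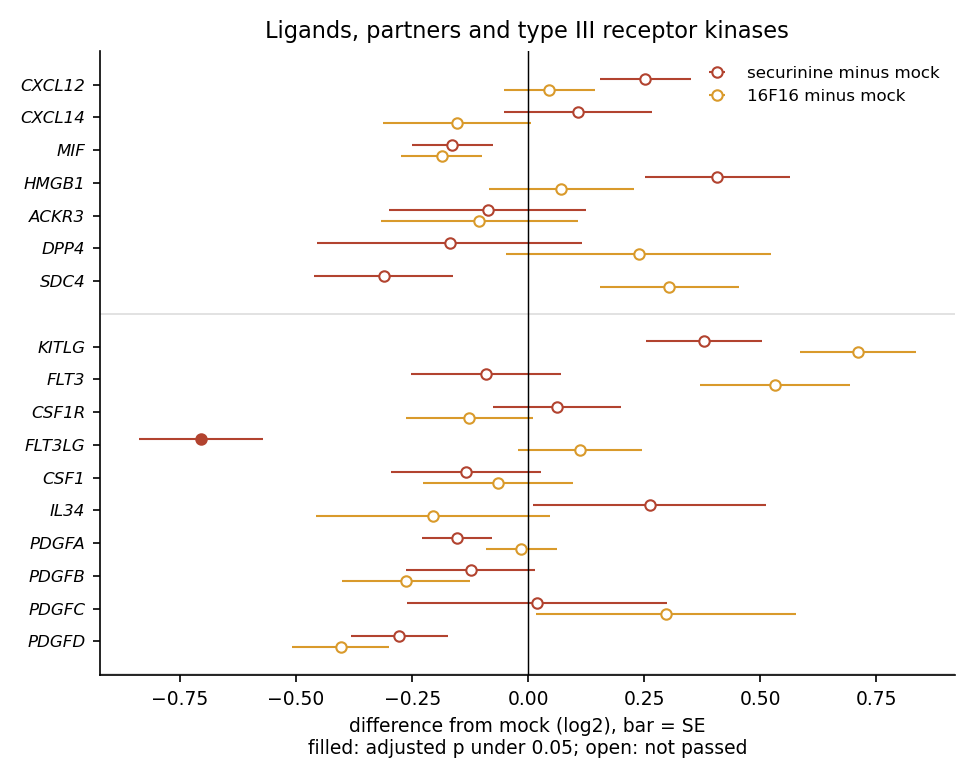
Difference from mock in log2 units (horizontal) of CXCR4 ligands and partners (upper block) and type III receptor kinases with their ligands (lower block) with securinine and 16F16. Points are differences of group means of 2 arrays, bars are SE, and filled points have an adjusted p under 0.05; FLT3LG with securinine (-0.71) is the filled point, and KITLG (0.38 and 0.71) lies right of 0 in both.

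Of 24 measured genes that carry the CXCR4 signal or remove the receptor, 5 rose and 1 fell with securinine, a share of 25% near the 19.0% of all genes. With 16F16 0 rose and 1 fell (4.17%, against 1.50%). ITCH, the ubiquitin ligase that marks CXCR4 for lysosomal sorting, rose by 0.48 ± 0.078 with securinine (adjusted p = 0.013). It had 9.77 and 9.75 with securinine, 9.30 and 9.34 with 16F16 and 9.24 and 9.32 in mock. The deubiquitinases USP14 and USP8 rose by 0.46 ± 0.091 and 0.36 ± 0.077, the kinase JAK2 by 0.53 ± 0.11 and the scaffold BCAR1 by 0.33 ± 0.082. RGS4, which shortens G protein signals, fell by 0.81 ± 0.10 with securinine and was at -0.68 ± 0.10 with 16F16 (adjusted p = 0.051). GRK5, a kinase that phosphorylates activated receptors, fell by 0.70 ± 0.087 with 16F16 (adjusted p = 0.036) and was at -0.29 ± 0.087 with securinine (adjusted p = 0.076). GRK5 had 7.89 and 8.01 with securinine, 7.54 and 7.53 with 16F16 and 8.29 and 8.18 in mock, and the difference of 16F16 from securinine passed (-0.42, adjusted p = 0.044). ITCH also differed between the treatments (-0.44, adjusted p = 0.031).

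Of 26 measured genes of KIT signalling and its inhibitors, 5 rose and 4 fell with securinine (34.6%, against 19.0% of all genes), and 1 rose and 0 fell with 16F16 (3.85%, against 1.50%). SPRY4, a feedback inhibitor of receptor kinase signals, rose with both. It had 8.12 and 8.06 with securinine, 7.66 and 7.86 with 16F16 and 7.14 and 7.11 in mock, with no overlap between groups. The share of all genes separated in that order was not counted. The rise was 0.96 ± 0.096 with securinine (adjusted p = 0.0044) and 0.64 ± 0.096 with 16F16 (adjusted p = 0.049). The phosphatase DUSP6, a feedback inhibitor of ERK, went the other way. It fell by 0.96 ± 0.15 with securinine (adjusted p = 0.012) and was at -0.63 ± 0.15 with 16F16 (adjusted p = 0.10). The adaptor GAB2 rose by 0.79 ± 0.12, and the RAS exchange factors SOS2 and SOS1 by 0.65 ± 0.095 and 0.44 ± 0.086 with securinine. SOCS1, which dampens cytokine receptor signals, rose by 0.31 ± 0.080 with securinine and was at 0.52 ± 0.080 with 16F16 (adjusted p = 0.052). The kinases LYN and MAPK3 fell by 0.50 ± 0.083 and 0.49 ± 0.10, and the factor STAT5B by 0.41 ± 0.080. GAB2, SOS2 and MAPK3 differed between the treatments as well (adjusted p = 0.030, 0.046 and 0.041).

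Transcription factors linked to KIT or CXCR4 in some cell types included several lowered genes. Of 22 measured, 3 rose and 5 fell with securinine (36.4%, against 19.0% of all genes), and 0 rose and 1 fell with 16F16 (4.55%, against 1.50%). EPAS1, the hypoxia-inducible factor HIF-2 alpha, had 7.70 and 7.92 with securinine, 9.25 and 9.12 with 16F16 and 9.33 and 9.20 in mock. It fell by 1.45 ± 0.11 with securinine (adjusted p = 0.0028) and was at -0.082 ± 0.11 with 16F16, and the treatments differed by 1.37 (adjusted p = 0.0088). GATA2, a factor of blood precursors and of noradrenergic cells, had 8.96 and 9.13 with securinine, 9.89 and 9.74 with 16F16 and 10.08 and 10.03 in mock. Its fall of 1.01 ± 0.10 with securinine passed, and the 16F16 difference of -0.23 ± 0.10 did not. MYC fell with both, by 2.62 ± 0.18 with securinine and by 1.65 ± 0.18 with 16F16 (adjusted p = 0.030). MYB and FOXO1 fell by 0.38 ± 0.090 and 0.34 ± 0.088, while CREB1, RELA and YY1 rose by 0.38 ± 0.080, 0.36 ± 0.079 and 0.34 ± 0.087 with securinine. NRF1, a factor that acts on the CXCR4 promoter, was at 0.075 ± 0.10 with securinine and -0.25 ± 0.10 with 16F16, neither passing. GATA3 was at -0.15 ± 0.075 with securinine, and MITF, the melanocyte factor upstream of KIT, was dim and at -0.36 ± 0.11 without passing. MYCN, HIF1A and TFAP2A are not analysed here.

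**Figure D4:**
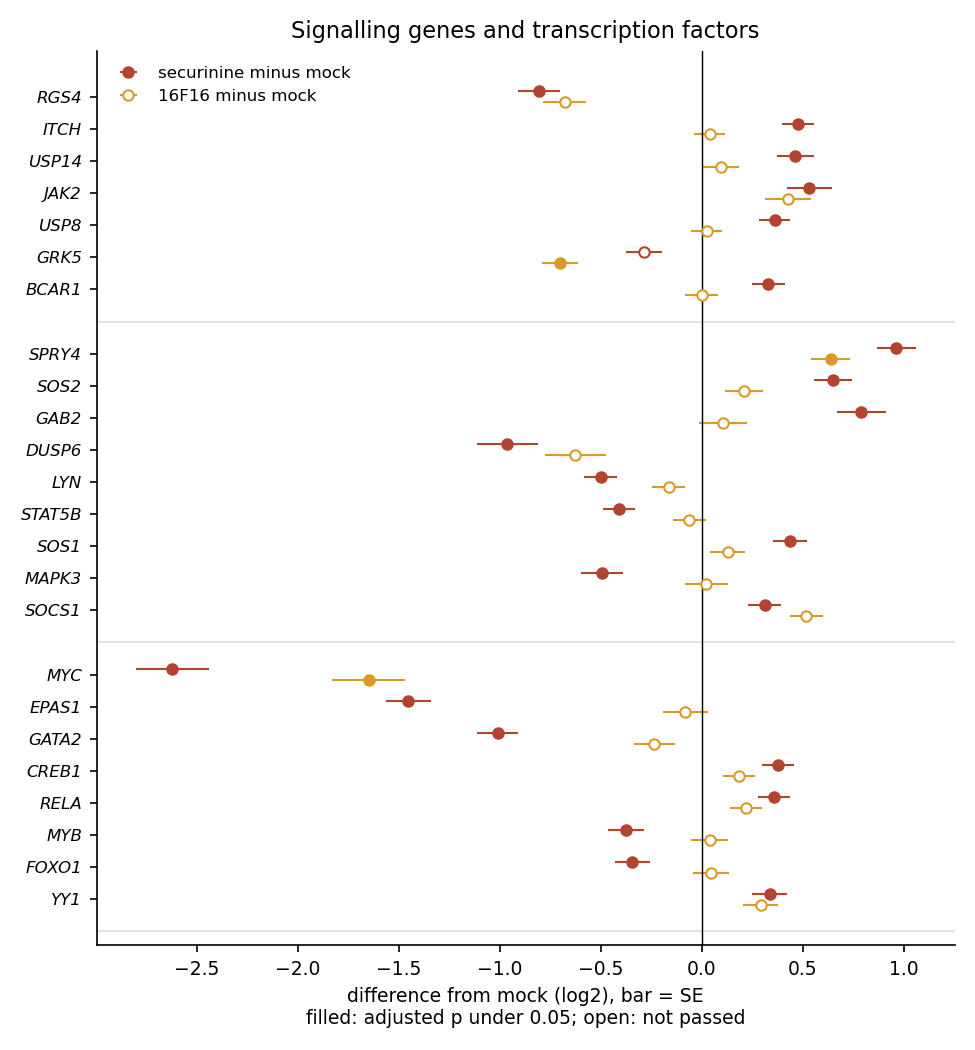
Difference from mock in log2 units (horizontal) for the genes of lowest adjusted p among CXCR4 signalling (top), KIT signalling (middle) and transcription factors (bottom), with securinine and 16F16. Points are differences of group means of 2 arrays, bars are SE and filled points have an adjusted p under 0.05; MYC (-2.62 and -1.65) and EPAS1 (-1.45 with securinine) lie farthest left and SPRY4 (0.96 with securinine) farthest right.

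Of 21 other receptor kinases and co-receptors measured, 1 rose and 5 fell with securinine (28.6%, against 19.0%), and 0 rose and 1 fell with 16F16 (4.76%, against 1.50%). RET, the receptor of GDNF-family ligands in crest-derived neurons, fell by 1.30 ± 0.12 with securinine and 1.17 ± 0.12 with 16F16. Its values were 6.93 and 6.85 with securinine, 7.18 and 6.87 with 16F16 and 8.19 and 8.18 in mock, so the 2 treatments overlapped, unlike for KIT. The co-receptor GFRA3 fell by 1.05 ± 0.10, EGFR by 0.73 ± 0.12, and the fibroblast growth factor receptors FGFR4 and FGFR2 by 0.55 ± 0.10 and 0.52 ± 0.13 with securinine, and the collagen receptor DDR1 rose by 0.66 ± 0.081. Of 18 neural crest genes, 3 rose and 3 fell with securinine (33.3%, against 19.0% of all genes), and 0 rose and 1 fell with 16F16 (5.56%, against 1.50%). SNAI1, SNAI2 and TWIST1 rose, and TFAP2B, ETS1 and FOXD3 fell with securinine. Of these, TFAP2B alone is among the list genes that kept their call whichever array was left out, and FOXD3 was dim. TFAP2B, a factor of crest-derived neurons, fell by 0.91 ± 0.10 with securinine and 0.76 ± 0.10 with 16F16. In the noradrenergic list of 14, 1 rose and 7 fell with securinine (57.1%, against 19.0% of all genes), and 0 rose and 4 fell with 16F16 (28.6%, against 1.50%). All 14 lay above the median of all probe sets on every array, while the shares of all genes include dim ones. Since the list was also chosen with earlier results known, these shares are not read as an enrichment. CHGA, a protein of secretory granules, fell by 2.22 ± 0.092 with securinine and fell by 1.24 ± 0.092 with 16F16. DDC, an enzyme of dopamine synthesis, fell by 2.05 ± 0.12 with securinine and fell by 1.06 ± 0.12 with 16F16.

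Of 9 measured markers of melanocytes, mast cells and Cajal cells, other cells that carry KIT, 3 (ETV1, PMEL and TPSAB1) lay above the median of all probe sets on every array and 6 did not. The mean log2 level of the 9 was 3.89 and 3.71 in securinine arrays, 3.93 and 4.09 in 16F16 arrays and 4.05 and 4.03 in mock arrays. With securinine 1 of the 9 was called (11.1%, against 19.0% of all genes), and with 16F16 also 1 (11.1%, against 1.50%). ETV1, a factor that works with KIT in Cajal cells, fell by 1.57 ± 0.16 with securinine (5.31 and 4.84, against 6.62 and 6.67 in mock). PMEL, a melanosome protein, rose by 0.67 ± 0.082 with 16F16 (6.40 and 6.36, against 5.69 and 5.75 in mock). The 10 measured blood, endothelial, epithelial, stromal and Schwann markers had means of 4.10 and 3.97 with securinine, 4.02 and 4.02 with 16F16 and 4.08 and 4.10 in mock. The monocyte marker CD14 rose by 0.57 ± 0.14 with securinine, the 1 call among the 10 (10%, against 19.0% of all genes), and 0 of the 10 passed with 16F16 in limma (1 at an unadjusted p under 0.05). The part of such cells in the CXCR4 and KIT values was not tested.

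The genes whose values ran most closely with each receptor were sought among 672 protein-coding genes that spanned at least 1 log2 unit over the 6 arrays, by Pearson correlation over those arrays. These points are 3 groups of 2 arrays, so the coefficients mostly follow the order of the groups and have no p-value. For CXCR4 the 6 closest were TSPAN15 (0.999), N4BP2L1 (0.998), PIWIL1 (0.996), CTSC (0.996), ZNF114 (0.996) and CGREF1 (0.995). TSPAN15 is a tetraspanin and CTSC a lysosomal protease. Their securinine differences lay between -1.28 (ZNF114) and -0.99 (PIWIL1), all smaller in size than the -3.50 of CXCR4. For KIT the 6 closest were TSPAN7 (0.998), IRX3 (0.997), FZD2 (0.994), LPAR3 (0.994), SFRP1 (0.994) and FZD7 (0.993). TSPAN7 is a tetraspanin, IRX3 a homeobox factor, LPAR3 a receptor of lysophosphatidic acid, FZD2 and FZD7 are Wnt receptors and SFRP1 a secreted Wnt antagonist. Of these LPAR3 had the largest difference, at -1.78 with securinine and -0.86 with 16F16, against -2.84 and -1.20 for KIT. KIT and CXCR4 correlated at 0.983 with each other, and KIT stood at rank 47 in the CXCR4 order and CXCR4 at rank 17 in the KIT order. Both were chosen by their securinine and mock values in these arrays, which favours a high correlation between them. Nothing is read from it.

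**Figure D5:**
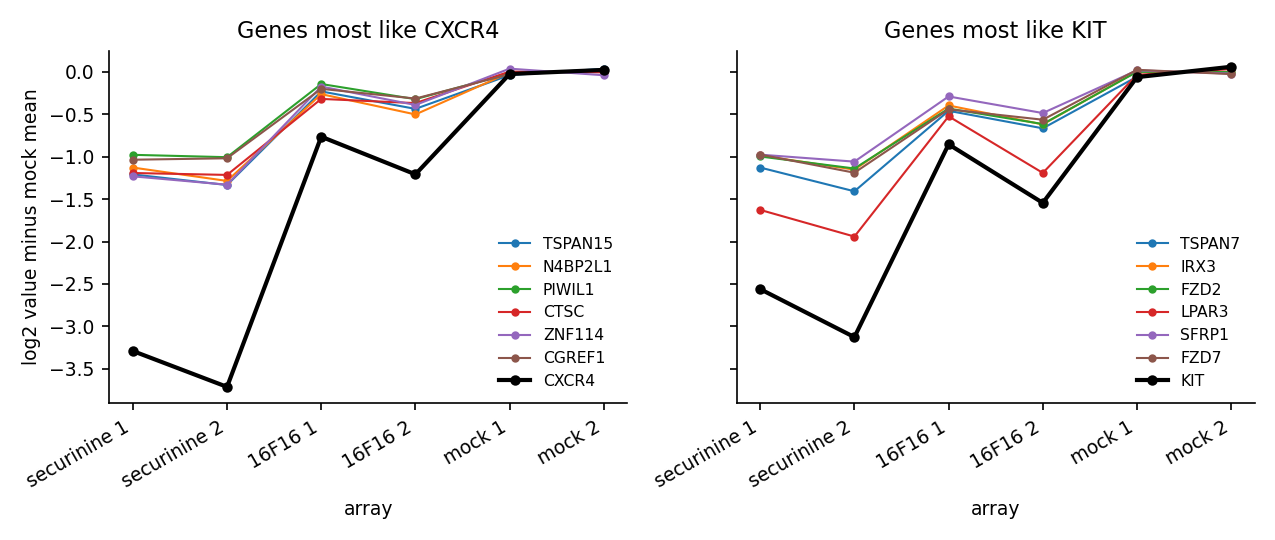
Log2 value minus the mock mean (vertical) on each of the 6 arrays (horizontal) for CXCR4 (left, black) and KIT (right, black) with the 6 genes of highest correlation in colour. All lines are lowest in the securinine arrays; the receptors reach -3.71 and -3.13, and LPAR3 is the deepest of the coloured lines in the right panel.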

How the data were processed

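Total RNA of SH-SY5Y cells was hybridised to 6 arrays, 1 per sample. The authors deposited log2 expression values; per the submitters' processing notes the tools were RMA and limma, with no version. RMA brings arrays to a shared distribution, which would hide a shift common to most transcripts.

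Of 53617 probe sets, 16098 (30.0%) had 1 gene symbol and the others were unnamed. All 14884 genes matched a RefSeq table (GRCh38.p14) by Entrez identifier. The probe set with the highest mean stood for a gene. limma 3.58.1 in R 4.3.3 (lmFit, eBayes, group as the only term, 3 residual degrees of freedom) was fitted to all 6 arrays, with two-sided p-values adjusted by Benjamini-Hochberg over all genes, after a test on simulated data. The median SE of a difference was 0.11, limited by the number of arrays.

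The members and lists were chosen with earlier results of these data known. Named genes were the members, list genes of lowest adjusted p, ligands, relatives and factors named in the rule, and the 6 closest profiles of each member. BCAR1, FGFR2, FOXO1, MAPK3, MYB, PAX3, SOS1, SOX10, STAT5B and TPSAB1 fall outside that rule and were named after their values were seen. DBH, HAND2 and PHOX2A were listed apart from the rule, as defining markers of SH-SY5Y cells. Alternatives covered the replicate block, the probe sets, the variance prior, scaling, a filter on low values and left-out arrays.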

Additional observations from a re-analysis of the deposited data

How the results depend on the processing

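The differences of CXCR4 and KIT between the groups kept their direction in all 14 alternatives tried, but most of these could not have turned it. The replicate block, the intensity trend, the choice of probe sets, the low-value filter and the fit of 4 arrays leave the differences as they were. With groups that do not overlap, leaving out 1 array cannot turn a difference either. Centring moves each array by its median, and the medians ran only from 4.16 to 4.23. The smallest gap between arrays of different groups was 0.74, so centring could not have turned a difference. That leaves quantile normalization as the alternative that could have done so. For 16F16 minus mock, CXCR4 (-0.99) and KIT (-1.20) passed with an intensity trend (adjusted p = 0.0013 and 0.0060) and with the filter on low values (0.032 and 0.047), and did not pass in the other 12. The adjusted p of CXCR4 ran up to 0.27 and that of KIT up to 0.31, both without mock replicate 2.

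Counts of called genes moved more. With securinine, adjusting over all probe sets gave 19 list genes instead of 44. For 16F16 against mock, 223 genes and 9 list genes became 1808 and 32 with the intensity trend and 985 and 22 with the low-value filter. They became 0 and 0 in limma with the replicate block, over all probe sets and in the 4 arrays of the 2 groups (2856, 7250 and 2904 features at an unadjusted p under 0.05). For 16F16 against securinine, 1416 and 23 became 3107 and 50 with the trend, 2418 and 40 with the filter, 503 and 11 with the replicate block, 324 and 5 in the 4 arrays, and 0 and 0 over all probe sets (9565 features at an unadjusted p under 0.05). Apart from the fewer arrays or more features tested, the cause was not tested.

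Leaving out 1 array gave 629 to 2462 genes and 12 to 36 list genes with securinine, 0 and 0 with 16F16 (2099 to 2904 genes at an unadjusted p under 0.05), and 0 to 324 and 0 to 5 between the treatments. A group left with 1 array was assumed to vary like the others.

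The titles number replicates 1 and 2 in each group, and nothing says that a number marks a shared culture or day. Deviations of same-numbered arrays correlated at -0.046 to 0.020 between groups, so the numbers are not taken as pairs. With the replicate block CXCR4 was at an adjusted p of 0.10 and KIT at 0.12 for 16F16 against mock.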

Other observations

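The genes beside the 2 receptors on their chromosomes were looked at after the values were seen. In the RefSeq gene order, 2 protein-coding genes on each side were taken, of which 4 of 8 were measured. KDR, a receptor of vascular endothelial growth factor that follows KIT on chromosome 4, had 3.19 and 3.34 in securinine arrays, 3.14 and 3.68 in 16F16 arrays and 2.79 and 3.39 in mock arrays, with overlapping groups. GSX2, a homeobox gene on the other side of KIT, was at 0.0032 ± 0.26 with securinine and -0.17 ± 0.26 with 16F16 (SE, limma, neither passing). Near CXCR4 on chromosome 2, the replicative helicase gene MCM6 fell by 0.68 ± 0.082 with securinine (adjusted p = 0.0065 in limma) and was at -0.32 ± 0.082 with 16F16 (adjusted p = 0.11). HNMT, which breaks down histamine, was at 0.12 ± 0.12 with securinine and 0.25 ± 0.12 with 16F16, neither passing.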
